A study of Mus musculus with 27 samples.

Results

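The endoplasmic reticulum (ER) chaperone and unfolded protein response genes were 35 genes named by symbol: the ER chaperones and their cofactors, the disulfide isomerases, the stress sensors with their transcription factors, the targets of the PERK-ATF4 branch, and the genes of ER-associated degradation. All 35 were found among the 18855 targets of the cancer-associated fibroblast (CAF) sheet, and they were chosen by name and role. Of the 35, 34 lay above background, which was taken as the 95th percentile of 1104 targets from 10 gene families with little expected expression in liver stroma, such as olfactory receptors. The exception was Derl3.

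The CAFs came from liver metastases of MC38 cells, a mouse colorectal cancer line, formed after injection into the portal vein of C57BL/6 mice aged 2 months. There were 13 regions of interest (ROIs 16 to 28) in metastases of CMTM6-knockdown cells and 14 (ROIs 1 to 15, without 12) in control metastases, from 3 mice a group. CMTM6 was silenced by short hairpin RNA in the injected cancer cells and not in the fibroblasts, which were those of the host in both groups. The desmin-positive area of each ROI was collected on the GeoMx Digital Spatial Profiler, which counts probe tags of a whole transcriptome panel. Which mouse each ROI came from is not in the labels, so some ROIs of a group share a mouse and all p-values over ROIs are too small.

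Proteins that enter the ER are folded with the help of BiP (Hspa5) and its cochaperones, of the lectins calnexin and calreticulin, and of the disulfide isomerases. When folding lags, IRE1 (Ern1), ATF6 and PERK (Eif2ak3) signal to the nucleus: IRE1 splices Xbp1 messenger RNA and ATF6 is cut to a free transcription factor, and both raise chaperone and degradation genes. PERK slows translation and raises ATF4, whose targets serve amino acid supply, redox balance and cell death, and ATF4 is also raised by other kinases, for example under amino acid shortage. Collagen-producing fibroblasts carry a heavy folding load, and procollagen has a chaperone of its own, HSP47 (Serpinh1).

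Promoter sequences of the members were searched for an element of each kind of response. RefSeq promoters (GRCm38.p6, 250 bases before to 50 after the start) were found for 31 of the 35 members. The ER stress response element, searched as CCAAT, any 9 bases and CCACG on both strands, occurred in 9 of the 31 (Calr, Canx, Creld2, Derl3, Dnajc3, Hsp90b1, Hspa5, Pdia6 and Syvn1), and in 39 of all 32851 promoters (0.119%). The C/EBP-ATF response element, searched as TGATGNAAN on both strands, occurred in 5 of the 31 (Asns, Atf3, Chac1, Herpud1 and Trib3), 4 of them among the 7 PERK-ATF4 targets, and in 1299 of all promoters (3.95%). No promoter of the 31 held both. Stretches upstream of the start are shown for 3 members of each kind, with the element in capitals, as examples of each element among the chaperones and among the PERK-ATF4 targets. They lie at chr2:34771995-34772073 (plus strand) for Hspa5, chr10:86705503-86705686 (minus) for Hsp90b1, chr12:17266461-17266539 (plus) for Pdia6, chr6:7693210-7693262 (minus) for Asns, chr1:191183406-191183474 (minus) for Atf3 and chr2:119351018-119351086 (plus) for Chac1.
Hspa5: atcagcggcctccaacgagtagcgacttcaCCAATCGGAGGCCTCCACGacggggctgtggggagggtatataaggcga
Hsp90b1: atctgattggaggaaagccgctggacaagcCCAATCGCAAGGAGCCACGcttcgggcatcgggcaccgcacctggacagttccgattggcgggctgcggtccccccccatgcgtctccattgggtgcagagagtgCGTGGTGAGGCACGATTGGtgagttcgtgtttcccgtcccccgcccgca
Pdia6: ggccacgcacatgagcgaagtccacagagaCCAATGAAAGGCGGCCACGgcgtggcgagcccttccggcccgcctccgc
Asns: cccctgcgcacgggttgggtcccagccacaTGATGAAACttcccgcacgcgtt
Atf3: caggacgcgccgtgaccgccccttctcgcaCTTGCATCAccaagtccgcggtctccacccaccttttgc
Chac1: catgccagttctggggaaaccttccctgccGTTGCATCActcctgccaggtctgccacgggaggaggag
The element began 65 bases before the start in Hspa5, 98 in Pdia6, 23 in Asns, 111 in Atf3 and 194 in Chac1, and Hsp90b1 held 2, at 212 and 107 bases, in opposite directions. Such a match is a description of the letters and not a measured binding site.

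Several features of the libraries touch every comparison. Knockdown ROIs held 76346 to 2776820 recovered reads (median 1138839), and control ROIs 659571 to 3269149 (median 1635294). The 75th percentile of the deposited values was 43.9 to 56.4 in knockdown ROIs and 70.3 to 72.6 in control ROIs. Apart from ROI 26, which had 56.4, the knockdown ROIs had 43.9 to 45.7, so it was nearly constant within each group. On these values limma called 94.0% of all targets lower in knockdown ROIs. Whether the scaling or the signal itself differed between the groups cannot be told apart. Members are compared relative to the median gene, as log2(value + 1) minus the ROI's median over all targets. In bulk segments, fewer cells of a type and less RNA per cell cannot be told apart. ROI 26 (knockdown) had the fewest reads, and it and ROI 14 (control) had the highest median log2 value of their groups, 4.87 and 5.26. In ROI 26, 9240 of the 18855 targets stood at 1 read, against 4 in ROI 14. There 1 read was worth 14.1 on the deposited scale, against 2.20 in ROI 14, so relative values in ROI 26 move in coarse steps. ROI 26 had the lowest relative value of its group for 18 of the 35 members, and ROI 14 for 27 of the 35. ROI 6 (control) had the highest for 11, among them Ero1a and 5 of the 7 PERK-ATF4 targets. Of 16 markers of fibroblasts and stellate cells, 15 lay above background, the exception being Lrat, and their median log2 difference was 0.04.

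Relative to the median gene, the chaperones of knockdown CAFs lay near their control level, while most PERK-ATF4 targets, with Atf4 and Ero1a, lay below it. By limma, with p-values adjusted over all targets, 0 members were called lower and 0 higher, where 0.00530% of all targets were called lower and 0.111% higher. At an unadjusted p under 0.05, 7 members were lower (Asns, Ddit3, Trib3, Atf4, Ppp1r15a, Ero1a and Canx) against 6.73% of all targets, and 0 were higher against 3.16%. By edgeR on the recovered reads, 1 member, Asns, was called lower (0.0849% of all targets) and 0 higher (0.594% of all targets). At an unadjusted p under 0.05, edgeR had 6 lower and 3 higher, against 3.96% and 5.61% of all targets. The 3 higher were Sdf2l1 (0.21), Pdia3 (0.20) and Atf3 (0.39), with edgeR adjusted p of 0.358 or more. DESeq2 also called Asns alone, where it called 0.142% of the targets it tested lower. On the deposited values, 34 of the 35 were called lower, Atf3 being the exception, against 94.0% of all targets. The median log2 difference was -0.04 over the members, -0.05 over all targets and -0.08 over targets above background, and by edgeR the members' median was 0.04.

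**Figure D1:**
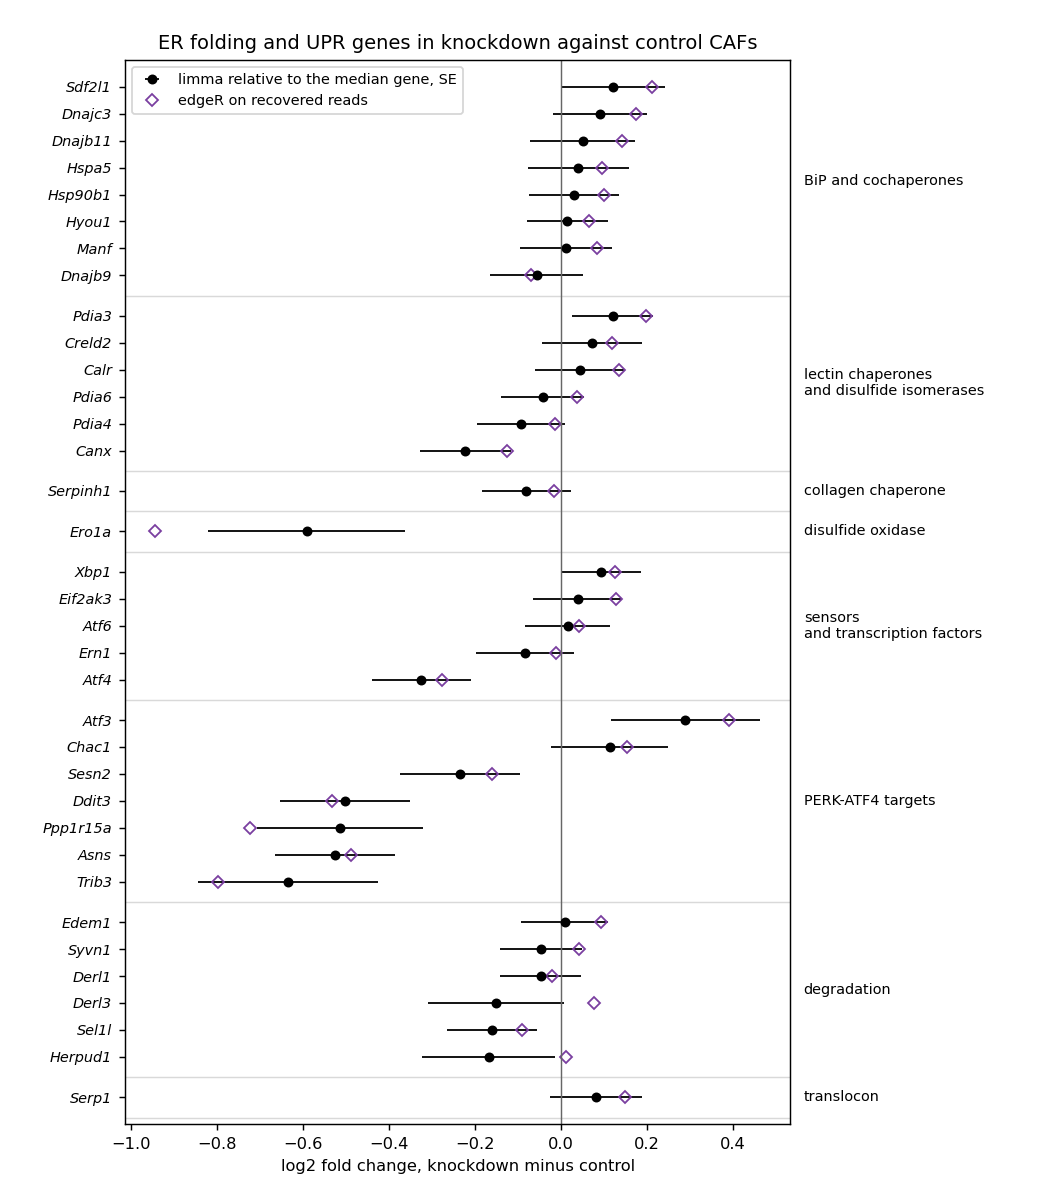
Log2 fold change (knockdown minus control) of each of the 35 members, grouped by role. Filled points with bars are limma relative to the median gene with the standard error, and open diamonds are edgeR on recovered reads. BiP and its cochaperones lie between -0.06 and 0.12 by limma, while 5 of the 7 PERK-ATF4 targets lie between -0.64 and -0.24.

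No member separated the groups on the relative scale: 0 of 35, as 0.00% of all targets, had every knockdown ROI below every control ROI. For 4 members, Asns, Ddit3, Trib3 and Atf4, all 13 knockdown ROIs lay below the control median, as they did for 0.636% of all targets. On the deposited scale, 11 of the 35 separated the groups, against 13.2% of all targets. These 11 included Asns, Ddit3 and Atf4, together with Calr, Canx, Serpinh1 and Edem1, whose relative differences were smaller.

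The PERK-ATF4 targets had a median log2 difference of -0.50, with 5 of 7 below 0. Of all 18855 targets 11827 were below 0, and of the 11027 above background 7796. In control ROIs 2, 13, 14 and 15, the mean relative log2 value of the PERK-ATF4 targets was 0.91, 0.70, 0.75 and 0.80, below the knockdown median of 1.03. Asns, asparagine synthetase, had deposited values of 122 to 203 in knockdown ROIs (median 174) and 204 to 621 in control ROIs (median 379.6). The highest knockdown value thus lay next to the lowest control value, that of ROI 14. Its log2 fold change was -0.53 relative to the median gene (SE 0.14, limma adjusted p = 0.127), and -0.49 by edgeR (adjusted p = 0.0335) and by DESeq2 (adjusted p = 0.0228). The edgeR call was lost without ROI 6 (-0.42, adjusted p = 0.0773) and kept without ROI 26 (adjusted p = 0.0487) or ROI 14 (adjusted p = 0.00481), and limma called Asns lower without ROI 14 (-0.62, adjusted p = 0.0154).

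Trib3, a pseudokinase that damps AKT and ATF4 signalling, had 17.4 to 84.5 in knockdown ROIs (median 42.3) and 36.4 to 284 in control ROIs (median 102), deposited values that overlapped. The difference was -0.64 (SE 0.21, limma adjusted p = 0.290), and by edgeR -0.80 (adjusted p = 0.0536). Without ROI 14, edgeR called Trib3 lower (-0.84, adjusted p = 0.0364). Ddit3, which encodes the transcription factor CHOP, had 27.4 to 52.4 in knockdown ROIs (median 41.3) and 57.5 to 258 in control ROIs (median 84.3), with no overlap. Relative to the median gene, 7 of the 13 knockdown ROIs lay below every control ROI, and the difference was -0.50 (SE 0.15, limma adjusted p = 0.225). The highest control value of Ddit3, that of ROI 6, was 258 where the next was 115, and without ROI 6 the difference was -0.38 (adjusted p = 0.305).

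Ppp1r15a, the stress-induced subunit of the phosphatase that ends the PERK signal, had a difference of -0.51 (SE 0.19, limma adjusted p = 0.382), and -0.36 without ROI 6, whose deposited value was 300.4 where the next was 127. Sesn2, a sestrin that restrains mTORC1, had -0.24 (adjusted p = 0.599), and -0.15 without ROI 26, where it had 2 reads. The remaining targets lay on the other side of 0. Atf3, a stress-induced repressor, had deposited values of 9.39 to 33.4 in knockdown ROIs (median 16.7) and 13.1 to 41.7 in control ROIs (median 20.6), and was the member with the highest relative difference, 0.29 (SE 0.17, limma adjusted p = 0.605). Chac1, which degrades glutathione, had 0.11 (SE 0.14, adjusted p = 0.807). Both were low, with a median of 19 reads an ROI for Atf3 and 28 for Chac1. The C/EBP-ATF element shown above was thus found in promoters of members at both ends of this group, Asns and Trib3 at -0.53 and -0.64, and Atf3 and Chac1 at 0.29 and 0.11.

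**Figure D2:**
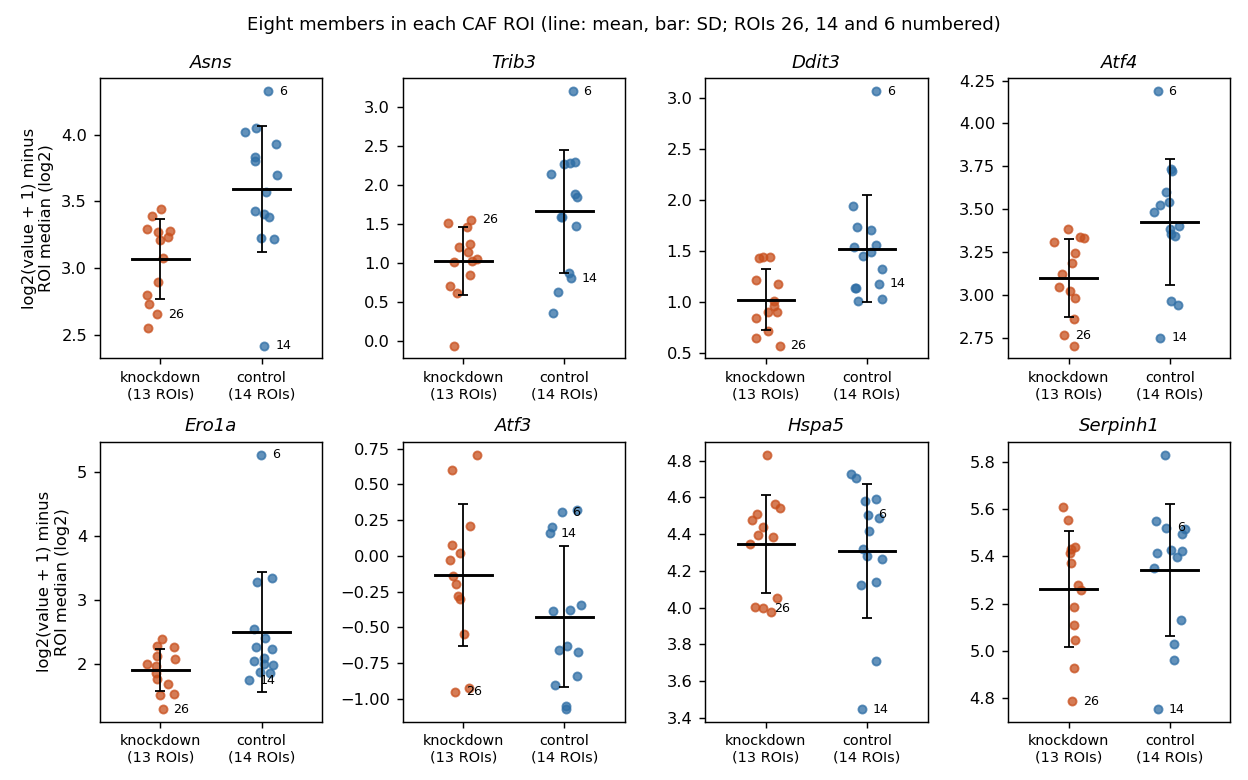
Relative log2 value of 8 members in each ROI, knockdown on the left (13 ROIs) and control on the right (14 ROIs), with the mean (line) and SD (bar) of each group and ROIs 26, 14 and 6 numbered. All knockdown ROIs lie below the control mean of Asns, Trib3, Ddit3 and Atf4, ROI 6 stands at the top of the control ROIs for these and Ero1a, and Hspa5 and Serpinh1 overlap.

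Among the 5 sensors and transcription factors, Atf4 alone was lower by limma at an unadjusted p under 0.05. Limma relative to the median gene, edgeR and DESeq2 called 0 of them. Atf4 had deposited values of 124 to 202 in knockdown ROIs (median 173) and 222 to 565 in control ROIs (median 325), with no overlap. Its relative difference was -0.33 (SE 0.12, limma adjusted p = 0.348), with an edgeR value of -0.28 (adjusted p = 0.277), and it was the lowest of the 5. On the relative scale the groups overlapped, with 1 of the 13 knockdown ROIs below every control ROI for Atf4. Xbp1, the target of IRE1 splicing, had 80.4 to 155 in knockdown ROIs (median 97.8) and 109 to 185 in control ROIs (median 143), and its difference of 0.09 (SE 0.09, adjusted p = 0.768) was the highest. The panel counts Xbp1 messenger RNA as a whole, and its spliced form was not analysed here. The 3 sensors had differences of -0.08 (Ern1), 0.02 (Atf6) and 0.04 (Eif2ak3).

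BiP and its cochaperones had a median log2 difference of 0.03, with 7 of 8 above 0, against 3231 of 11027 targets above background. Hspa5 had 329 to 563 in knockdown ROIs (median 403) and 397 to 855 in control ROIs (median 616), values that overlapped, and a relative difference of 0.04 (SE 0.12, limma adjusted p = 0.934). The highest of the group was Sdf2l1, a partner of BiP, with 53.4 to 102 in knockdown ROIs (median 73.0) and 79.1 to 133 in control ROIs (median 103), and a difference of 0.12 (SE 0.12, adjusted p = 0.764). The lowest was Dnajb9, a J-domain cochaperone that holds IRE1 in check, with 15.7 to 56.4 in knockdown ROIs (median 28.4) and 32.2 to 54.9 in control ROIs (median 46.8), and a difference of -0.06 (SE 0.11, adjusted p = 0.885). By limma, the differences of Hspa5, Sdf2l1 and Dnajb9 were no larger than about 1 standard error. The others, Hsp90b1 (the ER member of the HSP90 family), Hyou1 (the exchange factor of BiP), Dnajb11 and Dnajc3 (J-domain cochaperones) and Manf (a BiP-binding secreted factor), lay between 0.01 and 0.09.

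The lectin chaperones and disulfide isomerases had a median of 0.00. Pdia3, the isomerase that works with the lectins, had 817 to 1169 in knockdown ROIs (median 1029) and 1140 to 1751 in control ROIs (median 1351), with 12 of 13 knockdown ROIs below every control ROI, and a relative difference of 0.12 (SE 0.09, limma adjusted p = 0.688), the highest of the group. Canx, calnexin, had 592 to 921 in knockdown ROIs (median 751) and 1162 to 1574 in control ROIs (median 1357), with no overlap. Its difference was the lowest, -0.22 (SE 0.11, adjusted p = 0.486), and -0.15 without ROI 26, in which it had 42 reads. Calr, calreticulin and the soluble partner of Canx, had 0.04, and the isomerases Pdia4 and Pdia6 had -0.09 and -0.04. Creld2, an ER-resident folding factor, had 0.07.

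Serpinh1 had 638 to 907 in knockdown ROIs (median 773) and 939 to 1867 in control ROIs (median 1257), with no overlap, but a relative difference of -0.08 (SE 0.10, limma adjusted p = 0.819). The 15 collagens, whose folding it serves, had a median of -0.12. Ero1a, which reoxidizes the disulfide isomerases and is known to be raised in hypoxia, had 53.2 to 100.1 in knockdown ROIs (median 71.3) and 99.4 to 1202 in control ROIs (median 132). The ranges met only at their edges, and the control range rested on ROI 6, since the next highest control value was 318. The relative difference of Ero1a was -0.59 (SE 0.23, adjusted p = 0.395) and -0.38 without ROI 6 (adjusted p = 0.505), the edgeR value of Ero1a was -0.94 (adjusted p = 0.132) and -0.38 without ROI 6, and the DESeq2 value -0.36 (adjusted p = 0.396). The hypoxia genes, a list of 20 that does not hold Ero1a, had a median of -0.44. All 20 of 20 lay below 0, against 7796 of 11027 targets above background. Of the 20, limma called 0 (16 lower at an unadjusted p under 0.05, against 6.73% of all targets). EdgeR called 5 of the 20 lower, against 0.0849% of all targets. Of these 5, Vegfa (adjusted p = 0.0545) and Eno1 (adjusted p = 0.0569) were not called by edgeR without ROI 26. All 5 (Vegfa, Ldha, Pgk1, Eno1 and Fam162a) had their highest control value in ROI 6. Values of the hypoxia genes without ROI 6 are not given here.

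The degradation genes had a median of -0.10 by limma, with 5 of 6 below 0, against 11827 of all 18855 targets. By edgeR their median was 0.03, and Edem1, Derl3, Syvn1 and Herpud1 lay above 0. Edem1, which hands misfolded glycoproteins to disposal, had 126 to 169 in knockdown ROIs (median 135) and 169 to 273 in control ROIs (median 209.7), with no overlap, and a relative difference of 0.01 (SE 0.10, limma adjusted p = 0.987), the highest. Herpud1, a scaffold of the HRD1 ubiquitin ligase, had 28.2 to 96.9 in knockdown ROIs (median 64.2) and 81.3 to 135 in control ROIs (median 106). Its difference was the lowest, -0.17 (SE 0.15, adjusted p = 0.742), and -0.03 without ROI 26, where it had 2 reads. Sel1l and Syvn1, the adaptor and the catalytic subunit of that ligase, had -0.16 and -0.05, and Derl1 and Derl3, membrane proteins of the export channel, -0.05 and -0.15. Serp1, which stabilizes proteins at the translocon, had 137 to 269 in knockdown ROIs (median 178) and 198 to 342 in control ROIs (median 278), and a difference of 0.08 (SE 0.11, adjusted p = 0.830).

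The other ER folding and stress response genes numbered 90, with a median of -0.08. By limma 0 were called in either direction, where 0.00530% of all targets were called lower and 0.111% higher. At an unadjusted p under 0.05, 10 of the 90 were lower and 0 higher by limma, against 6.73% and 3.16% of all targets. EdgeR called 1 lower and 0 higher, against 0.0849% and 0.594% of all targets. That gene was Aldh1l2, a mitochondrial folate enzyme, with 21.9 to 56.4 in knockdown ROIs (median 29.8) and 42.3 to 245 in control ROIs (median 65.6), a limma difference of -0.58 (adjusted p = 0.225) and an edgeR value of -0.79 (adjusted p = 0.0439). Without ROI 26 the edgeR call was lost (adjusted p = 0.0541). The other lowest were Slc7a11, the cystine transporter, at -0.62 (adjusted p = 0.218), and Atf5, a transcription factor related to ATF4, at -0.50 (adjusted p = 0.171). All of these are known ATF4 targets, and each had its highest control value in ROI 6. Among those above background, the highest were Yod1, a deubiquitinase, at 0.15, Fkbp2, a prolyl isomerase, at 0.15, and Ero1b, the paralog of Ero1a, at 0.11, all with limma adjusted p of 0.615 or more.

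Within each group, the means of the PERK-ATF4 targets, chaperones and degradation genes were set against those of the hypoxia genes and the collagens across ROIs. These correlations describe 13 and 14 ROIs that share mice and a scaling, and carry no test. The PERK-ATF4 mean spread over 0.63 to 1.33 in knockdown ROIs (SD 0.20) and 0.70 to 2.41 in control ROIs (SD 0.45), and the hypoxia mean over 1.58 to 2.45 and 2.21 to 3.65 in knockdown and control ROIs. Control ROIs 2, 13, 14 and 15, low in the PERK-ATF4 mean, had hypoxia means of 2.30, 2.21, 2.25 and 2.30. PERK-ATF4 targets were high where the hypoxia genes were high in both groups, and Pearson's r was 0.77 in knockdown ROIs (Spearman's rho 0.74) and 0.79 in control ROIs (rho 0.85). Without the 2 ROIs farthest in hypoxia (26 and 19 in knockdown, 6 and 7 in control), r was 0.56 and 0.65 in knockdown and control ROIs.

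For chaperones and degradation genes the values of the groups lay apart. Chaperones against hypoxia genes gave r = 0.71 in knockdown ROIs (rho 0.77) and 0.08 in control ROIs (rho 0.08), and degradation genes gave 0.82 (rho 0.82) and 0.33 (rho -0.04) in knockdown and control ROIs. Without ROI 26, the knockdown values were 0.51 for chaperones and 0.69 for degradation genes. In control ROIs, chaperones had 0.23 without ROI 6 and -0.22 without ROI 14, and degradation genes 0.05 without ROI 6 and 0.23 without ROI 14. The difference between the groups was not tested. The hypoxia mean of knockdown ROIs itself followed the log10 of the reads (r = 0.80, against 0.39 in control ROIs). It also followed the mean of 25 housekeeping genes (0.74, against 0.08 in control ROIs). The chaperone mean followed the housekeeping mean in both groups (0.87 in knockdown, 0.73 in control ROIs). With the housekeeping mean, the PERK-ATF4 mean had 0.59 in knockdown and 0.23 in control ROIs, and the degradation mean 0.78 and 0.81. With the log10 of the reads, the PERK-ATF4 mean had 0.58 and 0.40, the degradation mean 0.75 and 0.48, and the chaperone mean 0.49 and 0.40. ROI 26 had the lowest hypoxia and housekeeping means of the knockdown ROIs. Its hypoxia mean was 1.58, where the next lowest, of ROI 23, was 2.03. It had 76346 reads, where the next fewest, in ROI 25, were 406002. The correlations of these means with reads and with the housekeeping mean were not taken without ROI 26. Those of single genes with the housekeeping mean were taken in knockdown ROIs without ROI 26. There, r was at least 0.5 for 13 of 14 chaperones, 4 of 6 degradation genes and 1 of 7 PERK-ATF4 targets. Of targets above background, 37.1% reached this level. The part of depth and of this shared component in the correlations was not tested.

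**Figure D3:**
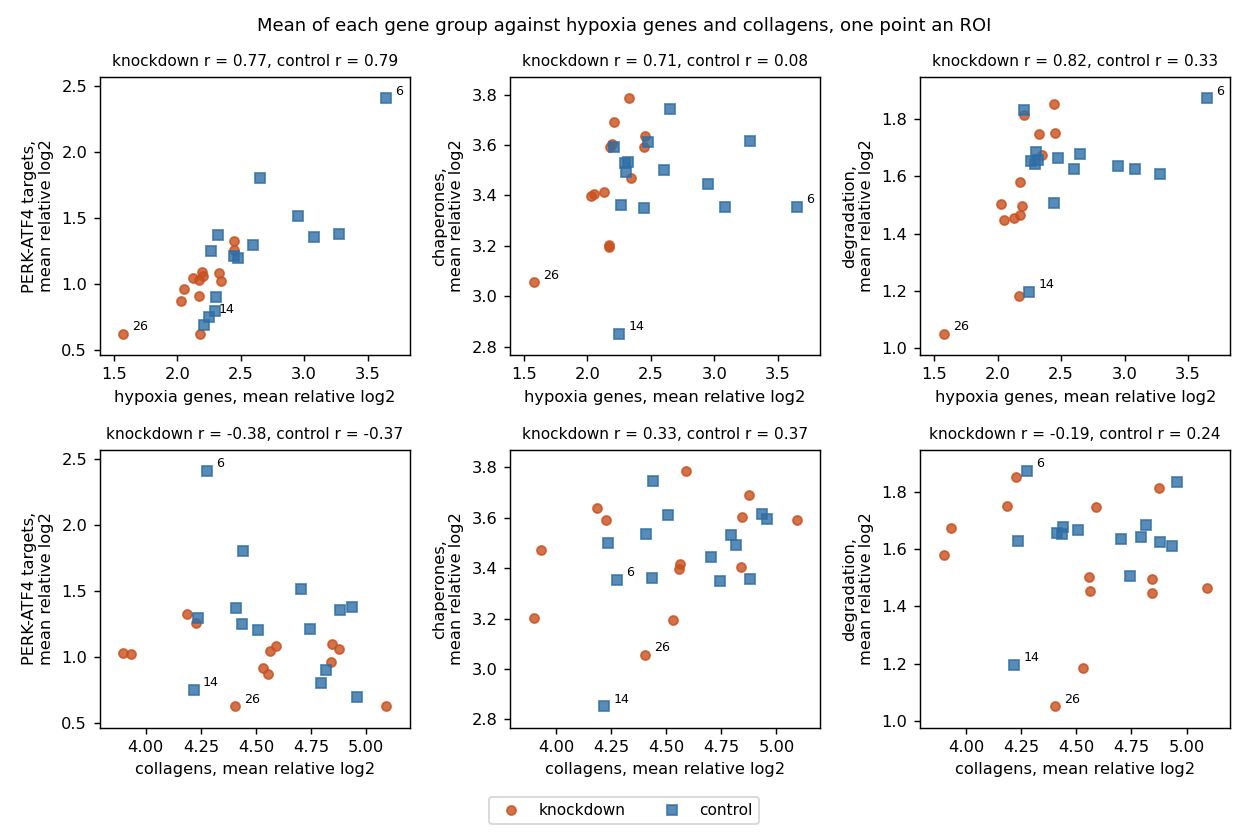
Mean relative log2 value of the PERK-ATF4 targets, chaperones and degradation genes (vertical axes) against that of the hypoxia genes (upper row) and collagens (lower row), each point an ROI, with knockdown as circles, control as squares, and ROIs 26, 14 and 6 numbered. Above each panel stands Pearson's r by group, which is similar for PERK-ATF4 targets against hypoxia genes (0.77 and 0.79 in knockdown and control) and 0.71 and 0.08 for chaperones.

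Gene by gene, 24 of the 35 members had r of at least 0.5 with the hypoxia genes in knockdown ROIs, where 42.5% of targets above background did, and 11 of 35 did so in control ROIs, where 4.89% did. Without ROI 26, 11 of 35 reached this level in knockdown ROIs, against 8.43% of targets, and without ROI 6, 5 of 35 in control ROIs, against 3.40%. Of the 7 PERK-ATF4 targets, 6 reached it in control ROIs (Ddit3 and Ppp1r15a highest, both 0.84, and Atf3 lowest, 0.12) and 4 in knockdown ROIs, and the numbers were 3 without ROI 6 and 1 without ROI 26. In control ROIs Ero1a had the highest r of the members, 0.90, and 0.86 without ROI 6, and Eif2ak3 the lowest, -0.70. In knockdown ROIs the highest was Edem1, 0.89, and 0.68 without ROI 26, and the lowest Xbp1, -0.25. Syvn1 had 0.79 in knockdown ROIs, 0.83 without ROI 26, and -0.03 in control ROIs.

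Collagens gave another picture. PERK-ATF4 targets had r = -0.38 with the collagens in knockdown ROIs (rho -0.16) and -0.37 in control ROIs (rho -0.22), chaperones 0.33 and 0.37, and degradation genes -0.19 and 0.24, in knockdown and control ROIs. In control ROIs these values rested on single ROIs. Without ROI 14, r was 0.06 for chaperones, -0.18 for degradation genes and -0.59 for PERK-ATF4 targets, and without ROI 6 it was -0.18 for PERK-ATF4 targets. Of the 35 members, 3 had r of at least 0.5 with the collagens in knockdown ROIs (Dnajc3, Pdia6 and Serp1) against 7.02% of targets above background, and 5 in control ROIs against 16.0%. Without ROI 26 they numbered 6 in knockdown ROIs against 11.1%, and without ROI 6 they numbered 7 in control ROIs against 17.5%. The 5 in control ROIs were Pdia3, Pdia6, Dnajc3, Serpinh1 and Hsp90b1. Pdia6 had 0.62 and 0.60 and Dnajc3 0.65 and 0.53 in knockdown and control ROIs, above this level in both. Serpinh1 had 0.47 and 0.53. With the markers of fibroblasts and stellate cells, 3 of which are collagens of the list, the PERK-ATF4 mean had r = -0.35 in knockdown and -0.77 in control ROIs, and with the endothelial markers 0.06 in knockdown and -0.70 in control ROIs.

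The PERK-ATF4 targets were also set against Atf4 itself. In control ROIs, 6 of the 7 had r between 0.76 and 0.90 with Atf4 and Atf3 had 0.20, where 13.1% of targets above background had r of at least 0.5. Without ROI 6, the 6 had 0.71 to 0.89 (15.4% of targets). In knockdown ROIs, the 7 had 0.20 (Ppp1r15a) to 0.72 (Asns), with 3 of 7 at 0.5 or above where 23.0% of targets were, and without ROI 26 4 of 7 where 13.1% were. Among all members, Creld2 had the highest r with Atf4 in knockdown ROIs, 0.88, and 0.41 in control ROIs. The median r between pairs of PERK-ATF4 targets was 0.195 in knockdown and 0.700 in control ROIs, that of chaperones 0.648 and 0.671, and that of degradation genes 0.488 and 0.427. Pairs among 2757 targets, evenly taken from those above background, had 0.202 in knockdown and 0.157 in control ROIs. These pair values were not taken without ROI 6 or ROI 26, and their difference between the groups was not tested.

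**Figure D4:**
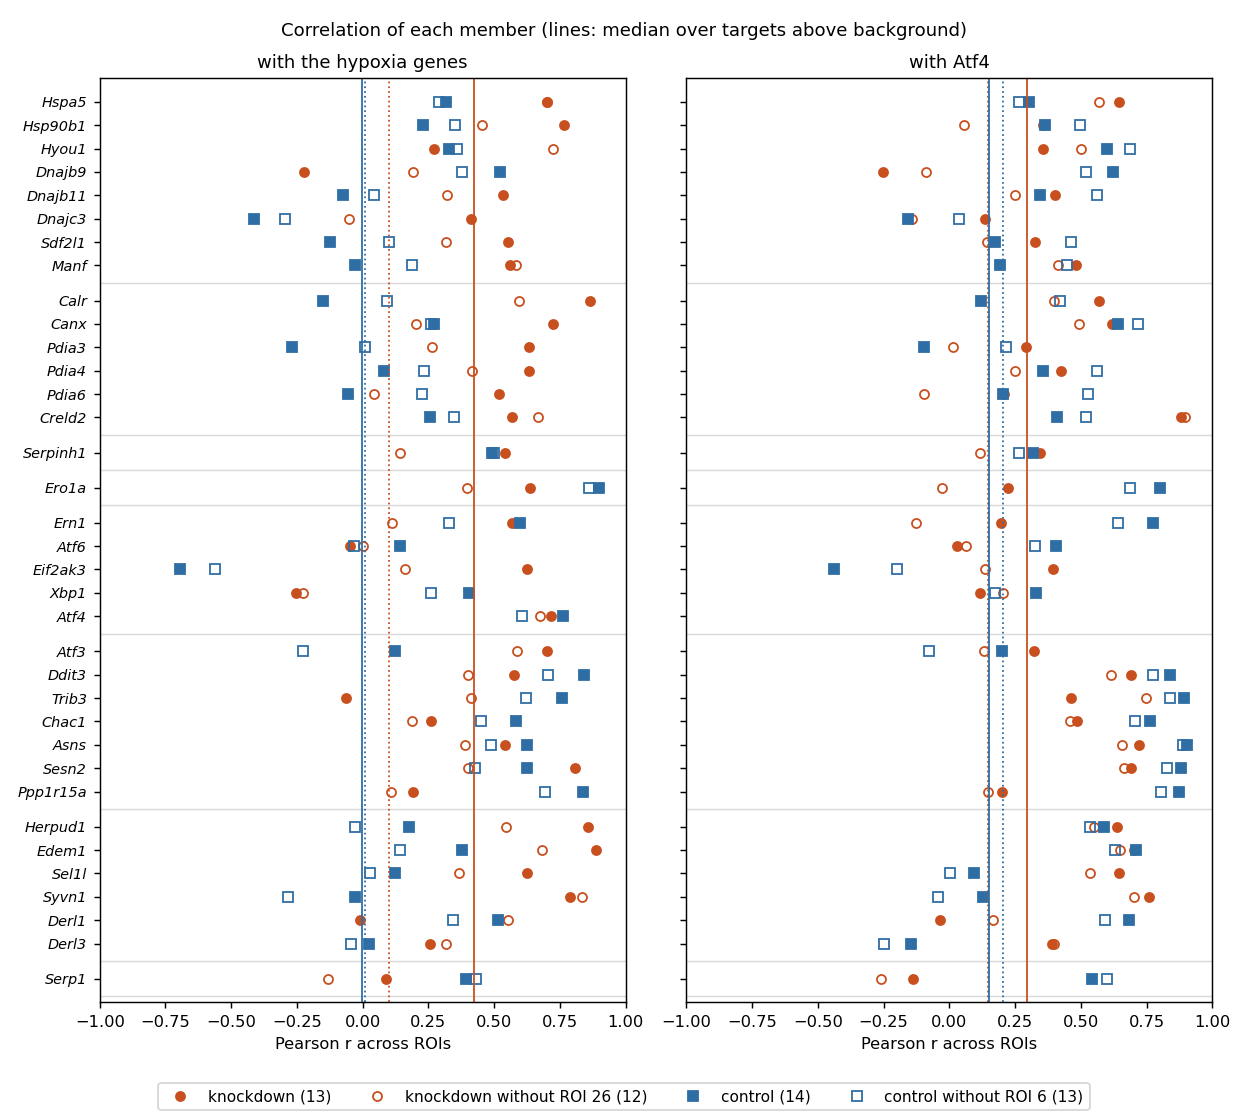
Pearson's r across ROIs of each member with the mean of the hypoxia genes (left) and with Atf4 (right), for knockdown (circles) and control ROIs (squares), open without ROI 26 or ROI 6. Vertical lines give the median over targets above background, for the hypoxia genes 0.42 in knockdown and 0.10 without ROI 26. In control ROIs, 6 of the 7 PERK-ATF4 targets lie at 0.58 or above with the hypoxia genes and at 0.76 or above with Atf4, and Atf3 at 0.12 and 0.20.

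Markers of other cell types were measured in the same segments, where no target had a value of 0. Of 12 epithelial markers 2 lay above background, Krt18, Krt19 and Epcam being below it, with sums of 97.1 to 239.5 in knockdown ROIs and 139 to 465 in control ROIs. Of 13 macrophage markers 9 lay above it (1101 to 2849 in knockdown, 1205 to 3512 in control ROIs), and of 16 hepatocyte markers 13 (358 to 1484 in knockdown, 301 to 999 in control ROIs), with a median log2 difference of 0.94. Above background were also 7 of 12 endothelial markers (474 to 977 in knockdown, 767 to 1540 in control ROIs), 7 of 12 markers of T and NK cells (163 to 394 in knockdown, 196 to 472 in control ROIs) and 5 of 14 of B and plasma cells (155 to 1176 in knockdown, 235 to 995 in control ROIs). The sums are of deposited values, on which limma called 94.0% of all targets lower in knockdown ROIs. Relative to the median gene, the median log2 difference was 0.20 for macrophage markers and 0.25 for T and NK cell markers. It was -0.15 for endothelial markers, -0.08 for epithelial markers and -0.06 for B and plasma cell markers. The PERK-ATF4 mean had r = -0.10 with the epithelial, -0.38 with the macrophage and 0.24 with the hepatocyte markers in knockdown ROIs, and 0.26, -0.16 and 0.42 in control ROIs. The part of these cells in the values of the members was not tested.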

How the data were processed

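Desmin-positive segments were measured with the GeoMx mouse whole transcriptome panel. The deposited values are a scaled signal per target and ROI, for which the authors turned sequencing reads of probe tags into counts per target and used the GeoMx DSP Analysis Suite. The kind of scaling, any filter on targets and the software version were not given in the sources used here, and the groups differ in their 75th percentile. As the values are no counts, the main test was limma 3.58.1 (trend, two-sided, Benjamini-Hochberg over 18855 targets) on log2(value + 1) minus the median of the ROI, in R 4.3.3, and a log2 fold change on this scale understates the change of low genes. The same test was run on the deposited values. Reads were recovered by dividing each ROI's values by the step between them (99.98% whole within 0.001 reads, 3 targets not whole in any ROI) and given to DESeq2 1.42.0 and to the quasi-likelihood test of edgeR 4.0.16 after TMM scaling. For 13 deep ROIs, whose lowest value is several reads, the step rests on the gaps between values. Scripts were tested on simulated data.

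Groups followed the labels. Replicate numbers follow the order of the samples and pair nothing, and p-values measure the spread between ROIs, which share mice. The members and gene lists were chosen with earlier results of these data known. Given in full were members called by limma or a count test, the highest and lowest member of each role, and Hspa5, Xbp1, Atf4, Ddit3, Serpinh1 and Ero1a, and of the other genes those called and the 3 highest and 3 lowest above background. Ppp1r15a, Sesn2 and Chac1 were named beyond that rule to complete their role. Alternatives were other scalings, pseudocounts of 0.1 and 5, a filter on low values, array weights, equal-variance tests and leaving out ROIs. Limma without ROIs 14 and 26 together, edgeR without ROIs 6, 14, 26, or 14 and 26, correlations without ROI 6 or 14, single-member correlations without ROI 26 and those with Atf4 were added after seeing the data. Promoters came from RefSeq on GRCm38.p6.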

Additional observations from a re-analysis of the deposited data

How the results depend on the processing

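Most values kept their side of the threshold and their direction. Members called lower numbered 0 by limma, and 1 by edgeR, by DESeq2, by edgeR without ROI 26, by limma without ROIs 14 and 26, with a pseudocount of 5 and with array weights, and 2 by edgeR without ROI 14 or without ROIs 14 and 26. Other ER genes called lower numbered 0 by limma, 1 by edgeR, by edgeR without ROI 6, by limma without ROIs 14 and 26 and with a pseudocount of 5, 3 by edgeR without ROI 14 or without ROIs 14 and 26, 4 with array weights, and 0 by edgeR without ROI 26. Leaving out each ROI in turn, members called lower ranged from 0 to 1 and other ER genes from 0 to 1, members called lower on the deposited values from 34 to 35, and the log2 fold change of Asns from -0.62 to -0.47. That of Hspa5 ranged from -0.026 to 0.072 and that of Edem1 from -0.041 to 0.064. Signs also turned for Herpud1 (0.010 by edgeR, 0.0098 by DESeq2, 0.028 by edgeR without ROI 26 and 0.034 by edgeR without ROI 6), Serpinh1 (0.00136 by edgeR without ROI 26, 0.011 against the housekeeping mean), Dnajb9 (0.0052 against the median of targets above background, 0.035 against the housekeeping mean), Hspa5 (-0.041) and Edem1 (-0.063), the last pair with a pseudocount of 5. Correlations moved with the ROIs left out and with the scaling. Against hypoxia genes in knockdown ROIs, chaperones had 0.46 without the 2 farthest ROIs, 0.51 without ROI 26, 0.45 with the 75th percentile and 0.35 with the housekeeping mean, degradation genes 0.66 without the 2 farthest ROIs and 0.64 with the housekeeping mean, and PERK-ATF4 targets 0.56 without the 2 farthest ROIs. Spearman's rho of degradation genes with hypoxia genes in control ROIs was -0.037. Against collagens with the 75th percentile, PERK-ATF4 targets had -0.68 and degradation genes -0.56 in knockdown ROIs, and chaperones 0.067 and degradation genes -0.20 in control ROIs. Without the 2 farthest control ROIs, chaperones had 0.071, PERK-ATF4 targets -0.68 and degradation genes -0.27 with the collagens. The cause of these changes was not tested. No paired analysis was possible because the replicate numbers follow the order of the samples and the mouse of each ROI is not in the labels. Depth limits Derl3, Atf3 and Chac1 (medians of 17, 19 and 28 reads an ROI) and every member in ROI 26, where Herpud1 had 2 reads.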
